A study of Mus musculus with 2 samples.

Results

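The Irf1, Csf2 and Il3 neighbourhood is a 540-kb stretch of mouse chromosome 11, from 53570001 to 54110000 (mm9), that lies distal of the cluster of Il4 and Il5. It was taken as 540 consecutive bins of 1 kb, chosen by position alone. Of these, 533 held at least 1 read, out of 2246042 such bins genome-wide. Along it lie, in this order, Irf1, Slc22a5, Slc22a4, P4ha2, Csf2 and Il3. Chromatin immunoprecipitation and sequencing (ChIP-seq) had been done once with an antibody to histone H3 carrying acetylated lysines (H3KAc) and once with non-specific polyclonal rabbit IgG, which gives the background. Both libraries came from Th2 cells derived from CD4+CD62L+ spleen cells of C57BL/6 mice. The cells had been activated with anti-CD3/CD28 in IL-4 (10 ng/ml) plus anti-IFN-g (2 µg/ml) over 5 days, after which they rested for 3 days. The labels give neither the age nor the number of the animals, and no sample of another T cell type or of stimulated cells was compared.

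Acetylation of histone H3 accumulates at the promoters and enhancers of genes that are active or ready to be activated. Irf1 encodes a transcription factor that is induced by interferons and drives interferon-response genes. Csf2 encodes GM-CSF and Il3 encodes interleukin 3, a pair of closely linked cytokine genes that helper T cells switch on after stimulation through the T cell receptor. Slc22a5 and Slc22a4 encode related membrane transporters of organic cations, the former for carnitine and the latter for ergothioneine. P4ha2 encodes a catalytic subunit of the prolyl hydroxylase that modifies collagen. In the gene table used here, which is on another build (GRCm38.p6) and was read only for gene order, the interval from Irf1 to Il3 holds 19 genes, of which 8 are protein-coding. Besides the 6 genes above, these are Slc22a21, between Slc22a5 and Slc22a4, and Pdlim4, between Slc22a4 and P4ha2. On mm9, positions to the nearest 0.01 Mb were given for 3 of the genes (Irf1 at 53.58 Mb, Csf2 at 54.06 Mb and Il3 at 54.08 Mb). No mm9 position was given for Slc22a5, Slc22a4 and P4ha2, which lie in this order between Irf1 and Csf2. Their GRCm38.p6 coordinates were not converted to mm9, so no peak was assigned to any of them. Marker genes of Th2 cells were not analysed here.

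The 250 bases before the transcription start are shown for the 3 genes with an mm9 position, because their H3KAc levels are set against each other below. The sequences are from RefSeq on GRCm38.p6, run 5′ to 3′ on the strand of the gene, and have each CG dinucleotide in capitals. Their coordinates belong to that build and are not on the mm9 scale of the ChIP-seq values. Irf1 lies on the plus strand (chr11:53769764-53770013), Csf2 on the minus strand (chr11:54249900-54250149) and Il3 on the minus strand (chr11:54267280-54267529).
Irf1: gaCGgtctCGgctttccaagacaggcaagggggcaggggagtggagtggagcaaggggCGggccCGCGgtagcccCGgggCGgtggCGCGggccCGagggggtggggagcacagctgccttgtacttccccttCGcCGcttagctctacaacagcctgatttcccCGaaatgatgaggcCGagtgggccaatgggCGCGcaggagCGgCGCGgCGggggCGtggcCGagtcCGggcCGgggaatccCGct
Csf2: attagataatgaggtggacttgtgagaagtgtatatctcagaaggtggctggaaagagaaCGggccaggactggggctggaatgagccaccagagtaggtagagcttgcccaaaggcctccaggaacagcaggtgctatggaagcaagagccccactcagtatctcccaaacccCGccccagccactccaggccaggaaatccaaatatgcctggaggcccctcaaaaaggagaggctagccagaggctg
Il3: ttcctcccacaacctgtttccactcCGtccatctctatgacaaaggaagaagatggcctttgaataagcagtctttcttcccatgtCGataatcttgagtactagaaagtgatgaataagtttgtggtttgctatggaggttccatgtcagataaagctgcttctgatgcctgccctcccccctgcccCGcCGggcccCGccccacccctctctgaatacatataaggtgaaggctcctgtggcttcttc

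The Irf1 sequence held 25 CG dinucleotides and was 71.2% G or C. It had more CG dinucleotides than 89.3% of the 32851 promoter sequences of the same length in the table, whose median was 6. For Csf2 the table starts at the outermost transcript, which may not be the main start, and its sequence and matches hold for that start alone. Csf2 had 2 CG dinucleotides, with 18.8% of promoters having fewer, and Il3 had 5, with 44.4% having fewer. The other genes resembled Irf1 in this respect, with 30 CG dinucleotides for Slc22a5, 26 for Slc22a4 and 21 for P4ha2. A downstream start of Irf1 in the same table had 35. Besides CG, 5 short motifs were searched on both strands: the TATA box letters TATAAA, the CAAT box letters CCAAT, the palindrome TTCNNNGAA found in STAT sites, the core GGAAA found in NFAT sites, and the palindrome TGANTCA found in AP-1 sites. The first of the Irf1 starts had 1 match to TTCNNNGAA, beginning 90 bases before the start, and 7.02% of all promoters held 1 or more. It also had 1 match to CCAAT, which 33.9% of promoters held. GGAAA, which overlaps the TTCNNNGAA match of Irf1 by letters on the other strand, was found in Irf1 (2 matches), Csf2 (2) and Il3 (1), and in 55.6% of all promoters. TATAAA (12.4% of promoters) and TGANTCA (6.75%) were not in any of these windows.

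The H3KAc library held 19711169 distinct read positions and the IgG library 1897666, from 21845451 and 7626703 reads. A distinct position had on average 1.11 reads in H3KAc and 4.02 in IgG. Levels are distinct positions per 1000000 in the library (RPM), after each had been moved 100 bp along its strand. With 1 library per antibody there is no replicate error and no p-value. The 95% intervals are exact Poisson intervals for levels and exact binomial (Clopper-Pearson) intervals for ratios. They cover counting error only and compare these libraries.

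As a whole, the neighbourhood carried more H3KAc per kb than the genome or the rest of its chromosome. It had 0.835 RPM per kb in H3KAc from 8891 positions and 0.714 RPM per kb in IgG from 732, a ratio of 1.17 (95% interval 1.08 to 1.26). In the rest of chromosome 11 the levels were 0.613 and 0.618 RPM per kb, a ratio of 0.992 (0.986 to 0.998). Over all bins both libraries average 0.445 RPM per kb by construction. IgG was thus also above the genome level here, and the excess of H3KAc over IgG was modest. The median bin held 13 H3KAc positions, against 9 in the rest of the chromosome and 6 over the genome. Only 14.3% of the bins lay below the genome median, against 33.0% in the rest of chromosome 11. No IgG position fell in 235 of the 540 bins (43.5%), which limits every ratio for single bins. Neither library had a read in 7 bins.

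**Figure D1:**
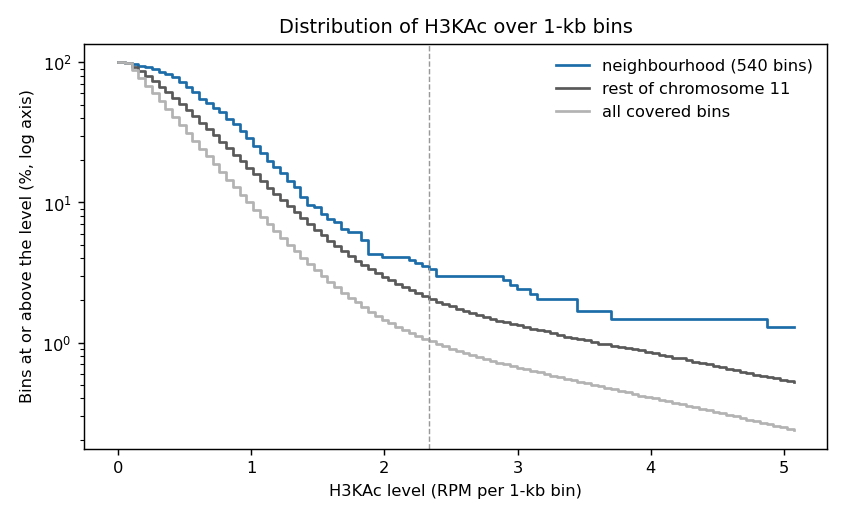
Share of 1-kb bins (percent, log axis) at or above each H3KAc level (RPM per bin) for the neighbourhood, the rest of chromosome 11 and all covered bins, with the 99th percentile of the genome (2.33 RPM) dashed. The neighbourhood has 3.33% of its bins at or above the dashed line against 2.05% and 1.02%. The curves are drawn up to 5.07 RPM, where the shares are 1.30%, 0.524% and 0.236%. Beyond the drawn range, near 7.0 RPM, 1 bin of the neighbourhood remains, and its share is slightly below that of the rest of the chromosome.

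Of 225 windows of 540 kb tiled over chromosome 11, 168 had reads in at least 90% of their bins. Among these, 43 had a higher mean H3KAc level and 36 a higher ratio to IgG, so the neighbourhood stood in the upper part of the chromosome but not at its top. The tiles ranged from 0.202 to 1.45 RPM per kb in H3KAc. The adjoining tile on the proximal side was similar, with 0.862 RPM per kb and a ratio of 1.31 (1.21 to 1.42). The adjoining distal tile was lower, with 0.463 RPM per kb in H3KAc and 0.378 RPM per kb in IgG, and its ratio was 1.23 (1.11 to 1.36).

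Within the neighbourhood, the bins with the most H3KAc formed a few narrow peaks, and the highest bin lay near Irf1. Most H3KAc positions (81.0%) lay outside these peaks. Bins at or above the 99th percentile of the genome (46 positions or 2.33 RPM) numbered 18, or 3.33% of the neighbourhood, against 1.02% of all covered bins and 2.05% of the rest of chromosome 11. Joined across at most 1 lower bin they formed 11 peaks, of which 7 were 1 kb wide. The lowest bin to reach the percentile had 46 positions and the highest below it had 45. A peak can hold lower bins where it was joined, the lowest with 36. The peaks covered 20 bins (3.70%) and held 19.0% of the H3KAc positions of the neighbourhood and 13.4% of its IgG positions. H3KAc averaged 4.28 RPM per kb inside peaks and 0.703 outside. IgG was higher in the same places, at 2.58 RPM per kb inside against 0.642 outside. The ratio was 1.66 (1.35 to 2.06) inside, where bins had been chosen for high H3KAc, and 1.09 (1.01 to 1.19) outside. Over the 540 bins, Spearman's rho between the libraries was 0.454, and over the 520 bins outside peaks 0.420. This is a description over bins that share the same 2 libraries and differ in how many positions can be read.

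**Figure D2:**
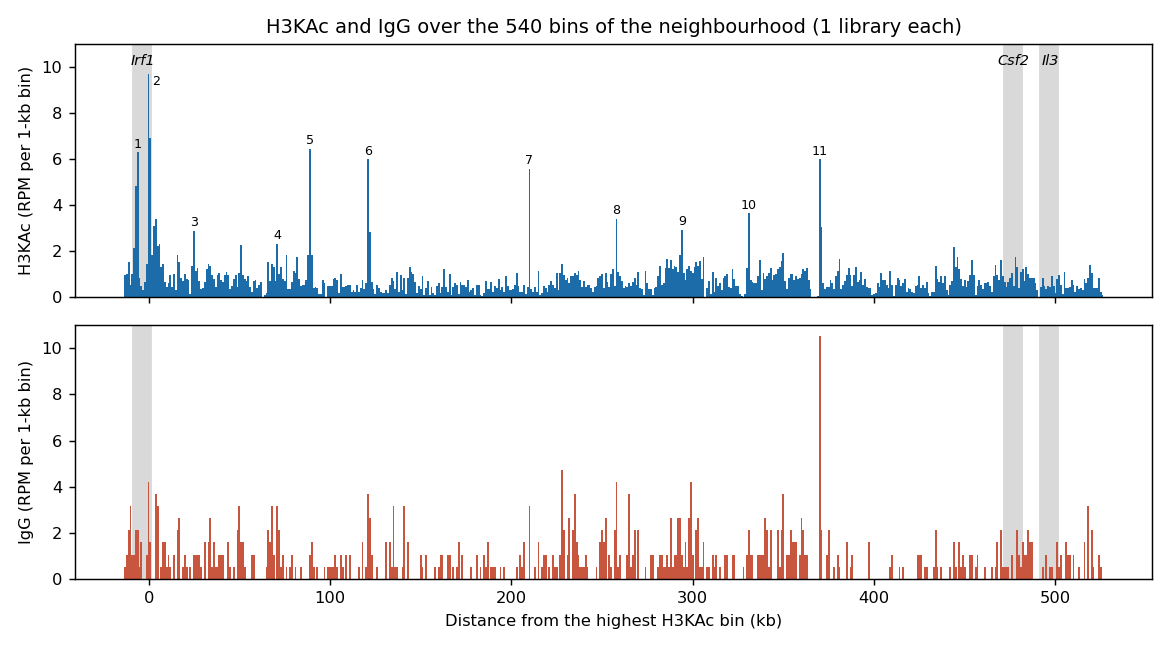
H3KAc (top) and IgG (bottom) in RPM per 1-kb bin along the neighbourhood, by distance in kb from the highest H3KAc bin, with peaks numbered from 1 to 11 and grey bands for the 10 kb around Irf1, Csf2 and Il3. The tallest H3KAc bin (9.69 RPM) lies in the Irf1 band, and the tallest outside that band is peak 5 (6.44 RPM). No numbered peak lies in the bands of Csf2 and Il3, and the tallest IgG bin (10.5 RPM) coincides with peak 11.

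The highest bin and the widest peak of the neighbourhood lay near Irf1. Peak 2, which starts inside the Irf1 window, spanned 7 kb (53583001 to 53590000) and was the widest of the 11. Averaged over its width it had 4.21 RPM per kb in H3KAc. That was below peaks 1, 5, 6, 7 and 11, of which peak 5 had the most (6.44 RPM per kb). In total, peak 2 had 29.5 RPM in H3KAc (27.1 to 31.97) from 581 positions and 12.6 RPM in IgG from 24, a ratio of 2.33 (1.55 to 3.67). The positions divided evenly between the strands, 293 on plus and 288 on minus. Its first bin, 53583001 to 53584000, was the highest of the neighbourhood at 9.69 RPM (8.36 to 11.2) from 191 positions, above 99.98% of all covered bins. From left to right the 7 bins held 191, 136, 36, 61, 67, 44 and 46 H3KAc positions. The IgG positions in the same bins were 8, 3, 0, 0, 7, 6 and 0. The first 2 bins thus stood far above the following 5, which formed a lower plateau.

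At 100-bp resolution the left edge of this peak was abrupt. The first 500 bp of the highest bin held 28 H3KAc positions, between 3 and 7 per 100 bp. The next 1000 bp (53583501 to 53584500) held 263, between 12 and 43 per 100 bp, or 13.3 RPM per kb against 2.84 in the 500 bp before. The following 1000 bp held 59. IgG had 2, 9 and 0 positions in these 3 parts, so its share of the rise is known only roughly. The maximum of 43 positions lay at 53583601 to 53583700, with 8 on plus and 35 on minus. The 100 bp before it held 14, all on minus, while over the 1000 bp the strands were even (130 plus, 133 minus). The exact places of the edge and the maximum thus depend on the 100-bp move of each strand. No other move was tried at this resolution.

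A second summit, peak 1, stood to the left of the highest bin. It covered 53576001 to 53578000 with 11.1 RPM (9.69 to 12.7) in H3KAc from 219 positions and 4.22 RPM in IgG from 8, a ratio of 2.64 (1.31 to 6.18). Here the shape was the mirror image of peak 2. Positions per 100 bp climbed gradually from the left to 39 at 53577301 to 53577400 and dropped to 7 and then 0 at 53577501 to 53577700. The 100 bp between held 19 positions, all on plus, and the 7 were all on minus. The exact place of this edge thus also depends on the move of each strand. The 5 kb between both peaks held 75 H3KAc positions, or 0.761 RPM per kb, close to the neighbourhood mean of 0.835, and 6 IgG positions.

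**Figure D3:**
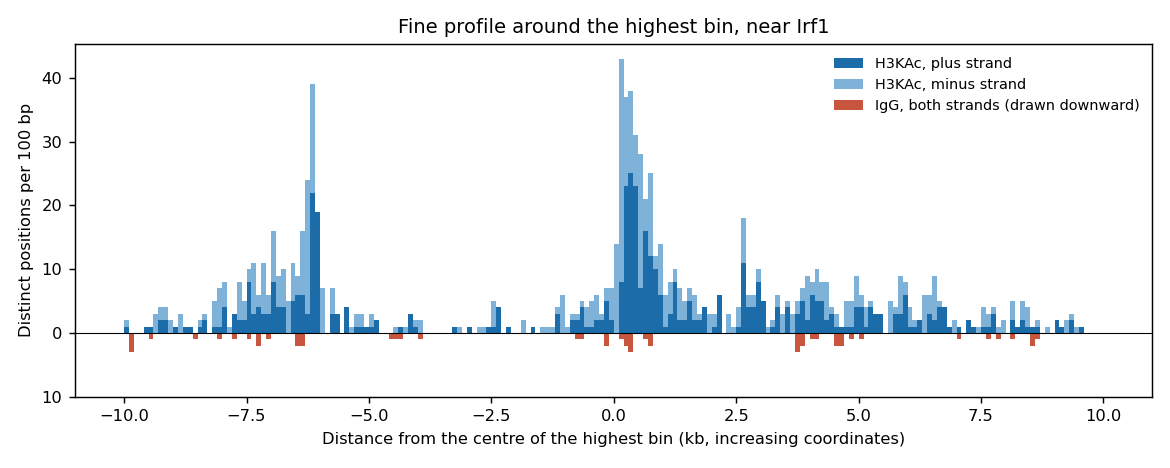
Distinct positions per 100 bp around the highest bin, by distance in kb from its centre, with H3KAc of the plus and minus strands stacked upward and IgG drawn downward. The main summit (43 positions) rises steeply on its left side and trails off to the right, and the second summit (39 positions), about 6 kb to the left, has its steep side on the right.

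Within 5 kb of the 3 genes with an mm9 position, H3KAc was highest for Irf1, next for Csf2 and lowest for Il3. The order depends on the window: within 2 kb, Csf2 had 83 H3KAc positions, Irf1 46 and Il3 44. Within 5 kb of the Irf1 position, H3KAc was 33.6 RPM (31.1 to 36.3) from 663 positions and IgG 14.2 RPM (9.38 to 20.7) from 27, a ratio of 2.36 (1.61 to 3.61). Within 5 kb of Csf2, H3KAc was 8.83 RPM (7.56 to 10.2) from 174 positions and IgG 6.32 RPM (3.27 to 11.05) from 12, a ratio of 1.40 (0.779 to 2.75). Within 5 kb of Il3, H3KAc was 5.58 RPM (4.59 to 6.73) from 110 positions and IgG 4.22 RPM (1.82 to 8.31) from 8, a ratio of 1.32 (0.649 to 3.14). At this width the interval of the ratio lay above 1 for Irf1 and included 1 for both cytokine genes. Within 2 kb it included 1 for Irf1 (ratio 1.11) and lay above 1 for Csf2 (4.0), and with all reads, repeats included, it also lay above 1 for Csf2 within 5 kb (1.19 to 2.41). The positions are known only to the nearest 0.01 Mb, so they can be off by up to 5 kb. A reach of 2 kb can therefore miss the true position, while a reach of 5 kb holds it together with flanking sequence.

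Set directly against each other in the H3KAc library, the Irf1 window was 3.81-fold (3.22 to 4.53) above the Csf2 window and 6.03-fold (4.92 to 7.44) above the Il3 window. The Csf2 window was 1.58-fold (1.24 to 2.03) above the Il3 window. IgG showed the same order, 2.25-fold (1.10 to 4.88), 3.38-fold (1.49 to 8.60) and 1.5-fold (0.564 to 4.23). The part of the H3KAc differences that also occurs in IgG was not tested beyond these values. Of 264177 windows of 10 kb tiled over the genome, 182174 had reads in at least 90% of their bins, and among these 99.9% were below Irf1, 87.4% below Csf2 and 68.0% below Il3. Among the 10128 of chromosome 11 that met the same minimum, 77.7% were below Csf2 and 51.8% below Il3.

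Bin by bin, neither cytokine gene had a peak by the percentile rule. The 10 bins around Csf2 held from 8 to 35 H3KAc positions with a median of 15. The highest, 54061001 to 54062000, had 1.78 RPM (1.24 to 2.47) and no IgG position, and 98.1% of covered bins were below it. This bin passes a threshold set at the 98th percentile (34 positions). The 4 bins within 2 kb of the Csf2 position held 83 positions in H3KAc and 2 in IgG. The ratio of 4.0 (1.07 to 33.5) rests on those 2. In the 10 bins around Il3 the counts ran from 4 to 18 with a median of 10, below the neighbourhood median of 13. The highest Il3 bin had 0.913 RPM (0.541 to 1.44), an interval that overlaps that of the highest Csf2 bin. Around Irf1, 4 of the 10 bins reached the 99th percentile, and the counts ran from 6 to 191 with a median of 35.5. The position given for Irf1 falls in the low ground between its 2 summits. The 4 bins within 2 kb of it held 46 positions in H3KAc and 4 in IgG. This gave a ratio of 1.11 (0.404 to 4.23), so the high values of the Irf1 window come from 2 to 5 kb on either side of the given position. That position can be off by up to 5 kb, so the place of the summits relative to the Irf1 start is not known here.

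**Figure D4:**
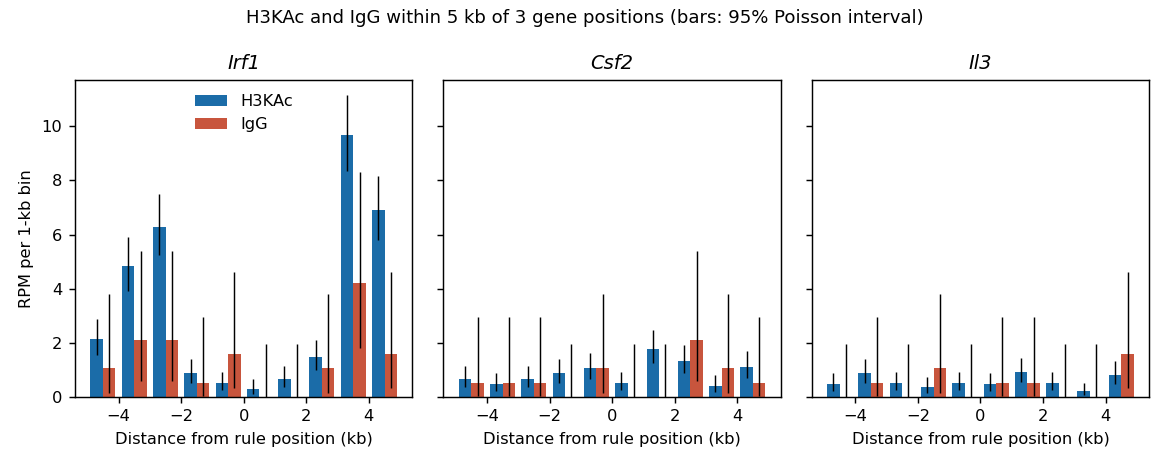
H3KAc and IgG in RPM for each 1-kb bin within 5 kb of the positions given for Irf1, Csf2 and Il3, with 95% Poisson intervals as error bars and the distance from the position in kb on the horizontal axis. Irf1 has summits on both sides (6.29 and 9.69 RPM), and no bin of Csf2 or Il3 is above 1.78 RPM in H3KAc.

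The 9 other peaks lay between 53608001 and 53955000, in the stretch that holds Slc22a5, Slc22a4 and P4ha2 in that order, and their ratios to IgG differed widely. The highest single bin among them was peak 5 (53672001 to 53673000), with 6.44 RPM (5.37 to 7.67) from 127 H3KAc and 2 IgG positions. Its ratio of 6.11 (1.66 to 51.0) was the highest of the 11 peaks, though the interval includes the values of most others. H3KAc was 9.77-fold above the median bin of the neighbourhood there, and the strands were balanced (65 plus, 62 minus). Both adjoining bins held 36 H3KAc positions.

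Peak 6 (53704001 to 53706000) had 8.83 RPM (7.56 to 10.2) from 174 H3KAc positions and 12 IgG positions, a ratio of 1.40 (0.779 to 2.75). Peak 7 (53793001 to 53794000) had 5.58 RPM (4.59 to 6.73) from 110 and 6 positions, a ratio of 1.77 (0.785 to 4.91). The bins on either side of it held only 9 and 7 H3KAc positions. To its left lay 87 kb without a peak, up to peak 6, in which no bin exceeded 26 positions. H3KAc averaged 0.481 RPM per kb over those 87 kb, the lowest of the stretches between neighbouring peaks.

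Peaks 3, 9 and 10 were lower, at 2.89, 2.94 and 3.65 RPM in H3KAc from 57, 58 and 72 positions. Their ratios were 2.74 (0.726 to 23.2), 2.79 (0.739 to 23.6) and 1.73 (0.648 to 6.53), resting on 2, 2 and 4 IgG positions. In peaks 4 and 8, IgG in RPM exceeded H3KAc. Peak 4 (53654001 to 53655000) had 2.33 RPM in H3KAc and 3.16 in IgG, a ratio of 0.738 (0.314 to 2.11), and peak 8 (53841001 to 53842000) had 3.40 and 4.22 RPM, a ratio of 0.806 (0.387 to 1.94). Over all 11 peaks, the interval lay above 1 for 3 (peaks 1, 2 and 5) and below 1 for none. The peaks had been chosen for high H3KAc, which favours high ratios, and the same count was not made for peaks of the whole genome.

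Peak 11 (53953001 to 53955000) stood apart in its repeated reads. It had 9.03 RPM (7.75 to 10.5) in H3KAc from 178 positions and 12.6 RPM (8.10 to 18.8) in IgG from 24, a ratio of 0.714 (0.465 to 1.14). Its first bin held 20 IgG positions, the most of the 540 bins, against 9 in the next (53811001 to 53812000) and 8 in the highest H3KAc bin. The ratio in that first bin was 0.568 (0.352 to 0.964). H3KAc had 291 reads at 118 positions there, or 2.47 reads per position, the only bin of the neighbourhood above 2. The 4 bins immediately to the left (53949001 to 53953000) had 1 H3KAc position and no IgG position together, and 3 of them had no read at all. Whether repeated sequence contributes to this peak was not tested.

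**Figure D5:**
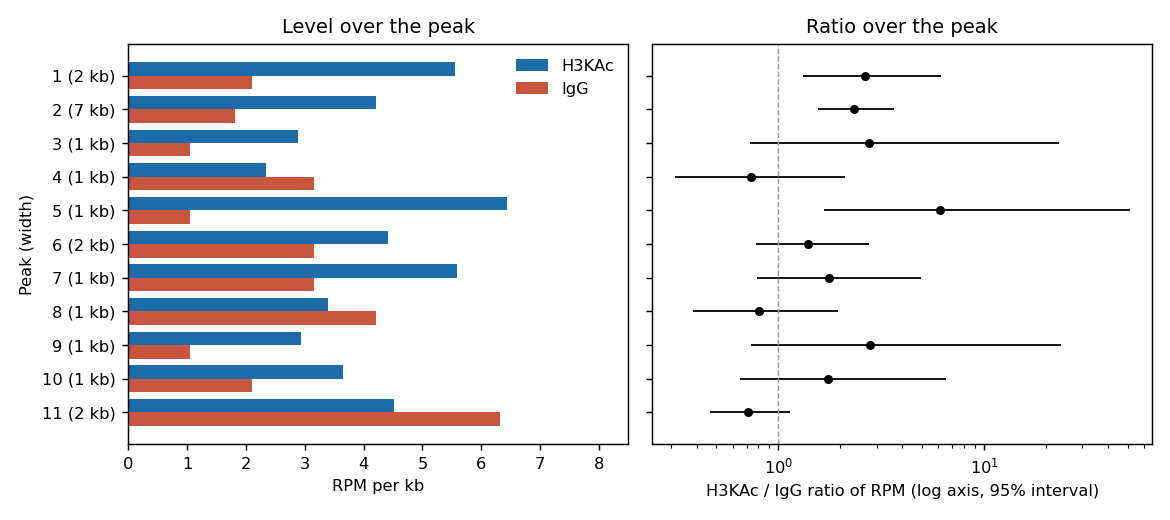
Level of H3KAc and IgG over each of the 11 peaks (RPM per kb, left) and the ratio of the libraries with its 95% interval (log axis, right), with a dashed line at 1. Peaks 1, 2 and 5 have intervals above 1, and peaks 4, 8 and 11 have more IgG than H3KAc.

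To the right of peak 11 no bin reached the 99th percentile for 155 kb, up to the end of the neighbourhood, a stretch that takes in Csf2 and Il3. H3KAc was not absent there. It had 106 RPM from 2083 positions, or 0.682 RPM per kb, below the neighbourhood mean of 0.835. The highest bin held 43 positions (54027001 to 54028000). IgG was low at 136 positions, so that the ratio was 1.47 (1.24 to 1.77). In 60-kb stretches, H3KAc per kb ran from 1.48 RPM in the first, which holds Irf1, to 0.530 RPM in the fourth. The highest ratio, 1.81 (1.32 to 2.55), belonged to the eighth stretch (53990001 to 54050000), which has no peak, an H3KAc level of 0.653 RPM per kb and the lowest IgG level of the 9 stretches, 0.360 RPM per kb. The lowest ratio, 0.788 (0.647 to 0.968), belonged to the fifth (53810001 to 53870000), where IgG was 0.984 RPM per kb. The last stretch, with Csf2 and Il3, had 0.704 RPM per kb in H3KAc and a ratio of 1.06 (0.834 to 1.35).

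Bins were also called enriched when the lower bound of their ratio exceeded 2 and the libraries together held at least 5 positions. None of the 540 bins was called in this way, against 0.0524% of all covered bins. At that background share less than 1 bin would be called in a stretch of this length, so the absence of calls says little about the neighbourhood. With a lower bound above 1, 6 bins were called (1.11%), against 0.409% of all covered bins. All 6 lay in peaks 1, 2 and 5, with 1, 4 and 1 bins. The bin of peak 5 had the highest lower bound among them, 1.66, followed by 53586001 to 53587000 in peak 2 with 61 H3KAc positions and no IgG position (a lower bound of 1.54). In the other direction, 13 bins had an interval below 1 (2.41%), against 2.76% of all covered bins, and 1 of the 13 was the first bin of peak 11.

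When IgG was averaged over the 11 bins centred on each bin, 20 bins were called at a lower bound above 2 (3.70%), against 1.35% of all covered bins. Of these, 11 were among the 18 bins at or above the 99th percentile, and 9 of the 11 peaks had at least 1 such bin. The exceptions were peaks 4 and 9. In 2 of the 11 called peak bins, those of peaks 8 and 11, IgG in the bin itself exceeded H3KAc, with ratios of 0.806 (0.387 to 1.94) and 0.568 (0.352 to 0.964), so these calls go against the IgG of their own bins. Peak 5 had the highest ratio of the called peak bins, 16.8 (8.28 to 39.8), and the highest bin near Irf1 had 6.74 (4.57 to 10.3). Of the 9 called bins below the percentile, 5 had no IgG position, and 4 lay between 53964001 and 53993000, where H3KAc counts were 33, 9, 21 and 23. For the bin with 9 H3KAc positions, the 11 bins of the window held no IgG position. No bin in the windows of Csf2 and Il3 was called enriched by any of these rules.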

How the data were processed

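Reads were aligned with Bowtie to mm9, per the submitters' processing notes; its version, filters and handling of reads that align to several places are not given in the sources. In the deposited files each row is an aligned read of 35 bases, with no normalization by the authors, and every count was computed from these positions. Reads sharing a 5′ end on the same chromosome and strand counted as 1 position, which was moved 100 bp along their strand (the labels give fragments of about 200 bp) and assigned to 1-kb bins. Each library was scaled to 1000000 distinct positions, so shared shifts in level are not seen. Libraries were compared by exact binomial intervals, and no p-value was computed. The calculation was checked on simulated independent Poisson counts, which cannot show how the intervals behave with repeated reads. Regions named are the 11 peaks, the called bins, the windows of 10 kb around 3 genes, the 3 bins with most IgG and runs of low bins. The members, gene lists and rules were chosen with earlier results of these data known. Alternatives covered repeated reads, the shift, IgG scaling, strand, bin width, thresholds and window width. Scripts ran in Python 3.11.15 with scipy 1.17.1, numpy 2.4.6 and pandas 2.3.3, and figures were drawn with matplotlib 3.10.9.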

Additional observations from a re-analysis of the deposited data

How the results depend on the processing

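The ratio over the neighbourhood stayed between 1.12 and 1.22 under 6 alternatives, and its interval remained above 1 in each. With all deposited reads, 28 bins were called instead of 0, and with a lower bound above 1 it was 6. No bin was called in the 8 other alternatives. The 20 bins called with IgG over 11 bins became 33 with all reads, 13 with the reads of either strand alone, 76 and 3 with lower bounds above 1 and above 4, and 11 with 2-kb bins. They were between 17 and 24 under the 5 other alternatives. The 11 peaks became 19 at the 98th and 7 at a stricter percentile and numbered between 8 and 13 otherwise. Within 2 kb of the gene positions the ratio was 1.11 for Irf1 and 4.0 for Csf2. Otherwise it ranged from 1.75 to 3.41 for Irf1, from 1.06 to 1.68 for Csf2 and, over 8 alternatives, from 0.928 to 1.45 for Il3. With all reads, copies of 1 position count as independent, which narrows the intervals, and the interval for Csf2 (1.19 to 2.41) then lay above 1. Leaving out bins with over 2 reads per position was chosen after seeing the data and gave 11 peaks and 19 called bins. IgG depth, under 1 position per bin over the genome, limits all ratios. Leaving out a replicate was not possible with 1 library per antibody.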

Other observations

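Reads left out because they repeated a position made up 9.77% of all H3KAc reads and 75.1% of all IgG reads, a ratio of 0.130 library-wide per 1000000 deposited reads. Over the neighbourhood 1134 H3KAc and 2262 IgG reads had been removed, a ratio of 0.175 (95% interval 0.163 to 0.188, which counts copies as independent). The ratio was 0.731 (0.523 to 1.03) around Irf1, 0.277 (0.153 to 0.496) around Csf2 and 0.0679 (0.0255 to 0.155) around Il3. The longest runs of bins below the genome median of 6 H3KAc positions were 4 kb long, and 1 of them adjoined peak 11.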
